A study of Mus musculus with 4 samples.

Results

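The Zfp36 family genes Zfp36, Zfp36l1 and Zfp36l2 were examined in cloned mouse Th1 cells, helper T cells that produce interferon gamma. They are 3 of 8251 genes that the array annotation names by a single symbol. All probe sets annotated to 1 of these 3 symbols were taken, which gave 5 probe sets of 12488 on the array: 1 for Zfp36, 1 for Zfp36l1 and 3 for Zfp36l2. The groups are anergic cells, made unresponsive with anti-CD3 antibody bound to a plate (anergic arrays 1 and 2), and normal, quiescent cells (control arrays 1 and 2). The labels name neither the clone nor its mouse strain or antigen, nor how long the antibody was applied. Whether replicate arrays hold RNA of separate cultures is not stated, so p-values measure only the spread between arrays, part of which may be technical. The family was chosen by its difference between anergic and control cells, seen in an earlier analysis of the same intensities. Its values are therefore a description and carry no test.

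Proteins of this family bind AU-rich elements in the untranslated ends of messenger RNAs through tandem CCCH zinc fingers. They recruit the CCR4-NOT complex, which removes the poly(A) tail and so starts the decay of the message. Zfp36 encodes tristetraprolin, an immediate early gene product known for limiting tumour necrosis factor. Zfp36l1 and Zfp36l2 are its paralogs, and mice that lack both in developing T cells are known to develop leukaemia driven by Notch1. In activated mouse T cells the family restrains cytokine production and proliferation.

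In the RefSeq promoter table of build GRCm38.p6, 2 of the 3 members matched, Zfp36 and Zfp36l1. Zfp36l2 has no entry there, so the promoters of these 2 genes are shown. Each sequence is the 250 bases directly before the start site, written in the gene's direction (5′ to 3′), and capitals mark matches to the 5 motifs searched. The Zfp36 sequence is at chr7:28379229-28379478 and the Zfp36l1 sequence at chr12:80113014-80113263, both on the minus strand.
Zfp36: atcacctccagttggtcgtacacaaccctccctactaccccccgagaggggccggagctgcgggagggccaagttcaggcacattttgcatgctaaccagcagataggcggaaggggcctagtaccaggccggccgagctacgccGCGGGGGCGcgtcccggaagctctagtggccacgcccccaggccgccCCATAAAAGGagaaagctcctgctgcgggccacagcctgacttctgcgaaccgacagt
Zfp36l1: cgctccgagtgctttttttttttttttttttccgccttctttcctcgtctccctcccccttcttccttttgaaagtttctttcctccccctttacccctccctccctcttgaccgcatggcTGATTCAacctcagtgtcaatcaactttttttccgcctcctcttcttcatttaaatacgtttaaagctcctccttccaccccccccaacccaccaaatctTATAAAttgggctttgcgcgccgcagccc

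The motifs were those of EGR factors (GCGNGGGCG), of AP-1 (TGANTCA), of the TATA box (TATAAA), of the CArG box bound by serum response factor and of NF-kB, on both strands. They were chosen because T cell receptor signals are known to activate EGR, AP-1, serum response factor and NF-kB. In Zfp36 an EGR match (GCGGGGGCG) lay at -105 to -97 and a CArG box (CCATAAAAGG) at -58 to -49 from the start site. In Zfp36l1 an AP-1 match (TGATTCA) lay at -129 to -123 and a TATA box at -29 to -24. Neither promoter held an NF-kB match, and no match overlapped a match to another motif. Among 32851 mouse promoter sequences of this length, 4.7% held the EGR letters, 1.47% a CArG box, 6.75% the AP-1 letters, 12.4% the TATA box and 7.25% the NF-kB motif. A match shows only that these letters are present.

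Intensities were deposited on a linear scale, with a trimmed mean of 500.3 on every array. Median intensities were 134.2 and 175.8 on the anergic arrays and 146.5 and 191.2 on the control arrays. Differences below are in log2(intensity + 29.15), anergic minus control, and the median over all 7453 probe sets tested was -0.09. Centring each array on its median moved this median to 0.03. All 7 T cell markers on the array were bright, with single intensities from 2068 to 13440. Their summed intensity was 44642 and 39193 on the anergic arrays, against 52809 and 40252 on the control arrays. Summed markers of macrophages and dendritic cells, in which the family is also active, were at 1543 and 2103 on the anergic arrays, against 1428 and 1834 on the control arrays. Of the 8 markers in that list 5 passed the filter on low values, single intensities ran from 8.2 to 931.9, and none was at 0. Its members did not move alike. Cd68 was at 497.6 and 531.5 on the anergic arrays, against 71 and 91.3 on the control arrays. Mpeg1 was at 93.8 and 155.8 on the anergic arrays, against 213.6 and 320 on the control arrays. Lyz2 was at 11.7 and 11.4 on the anergic arrays, against 129.1 and 73.3 on the control arrays. The brightest, Cd14, was at 684.4 and 858.2 on the anergic arrays, against 764.1 and 931.9 on the control arrays. Csf1r was at 117.6 and 344.1 on the anergic arrays, against 170.6 and 232.9 on the control arrays, and Adgre1 and Itgam did not exceed 36.9 on any array. Summed B cell markers (6 of 7 on the array) were at 593.4 and 930 on the anergic arrays, against 648.2 and 1050 on the control arrays. Granulocyte and mast cell markers (7 of 7) were at 323.5 and 616.1, against 545.3 and 701.6 in control. Erythroid cell and platelet markers (3 of 6) were at 223.4 and 270.2, against 133.8 and 475.4 in control. The part of other cells in the results was not tested, and in bulk RNA fewer cells of a type cannot be told apart from less RNA per cell.

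Zfp36 was higher in anergic cells. Its probe set 92830_s_at was at 1552 and 804.1 on anergic arrays 1 and 2, against 476.5 and 570.3 on control arrays 1 and 2. Both anergic arrays lay above both control arrays, with anergic array 1 far above the other 3. The means were 1178 ± 529 in anergic and 523 ± 66.3 in control cells (SD, n = 2 each), a ratio of 2.25. The log2 difference was 1.06 ± 0.35 (SE). Its size depended on anergic array 1: without it the difference was 0.60, and without anergic array 2 it was 1.52. On the log2 scale the anergic arrays differed from each other by 0.92 and the control arrays by 0.25.

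Zfp36l1 went the other way, with a larger difference than Zfp36 except without anergic array 2 (-1.21, against 1.52 for Zfp36). Its probe set 93324_at was at 1408 and 871.1 on the anergic arrays, against 2943 and 3677 on the control arrays. The groups did not overlap, since anergic array 1, the higher of its group, was still below control array 1, the lower of its group. The means were 1140 ± 380 in anergic and 3310 ± 519 in control cells (SD, n = 2 each), a ratio of 0.344. The log2 difference was -1.54 ± 0.29 (SE), and it lay between -1.88 and -1.21 when each array was left out in turn. RefSeq also lists a pseudogene, Zfp36l1-ps, and whether the probes detect it was not tested.

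Zfp36l2 was lower on average at all 3 of its probe sets, by less than Zfp36l1. The brightest, 160273_at, was at 3301 and 1857 on the anergic arrays, against 6302 and 2908 on the control arrays. Here the groups overlapped, since anergic array 1 was above control array 2. Both arrays numbered 1 were above the array of their own group numbered 2. The means were 2579 ± 1021 in anergic and 4605 ± 2400 in control cells (SD, n = 2 each), and the log2 difference was -0.78 ± 0.40 (SE). The size of this difference depended on control array 1, without which it was -0.23. Between arrays of the same number it was -0.93 for number 1 and -0.64 for number 2, though the labels do not make these pairs. Leaving out anergic array 1 gave -1.19, leaving out anergic array 2 gave -0.37 and leaving out control array 2 gave -1.34.

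The other probe sets of Zfp36l2 showed less scatter and smaller differences. Probe set 93944_r_at was at 451.2 and 563.3 on the anergic arrays, against 768.2 and 652.3 on the control arrays, a log2 difference of -0.47 ± 0.28 (SE). Probe set 93943_f_at was at 184.3 and 185.6 on the anergic arrays, against 262.4 and 287.5 on the control arrays, a log2 difference of -0.51 ± 0.34 (SE). At both, each anergic array lay below each control array. In the array maker's naming the suffix f marks probes shared within a sequence family, r marks a set for which some design rules were dropped, and s marks a set that matches several transcripts. Signal at 93943_f_at and at the Zfp36 probe set 92830_s_at may thus come in part from related transcripts, which was not tested. The bright and dim probe sets disagreed on how the arrays of a group compare: 160273_at gave a log2 gap of 0.82 between the anergic arrays, where 93943_f_at gave 0.01.

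**Figure D1:**
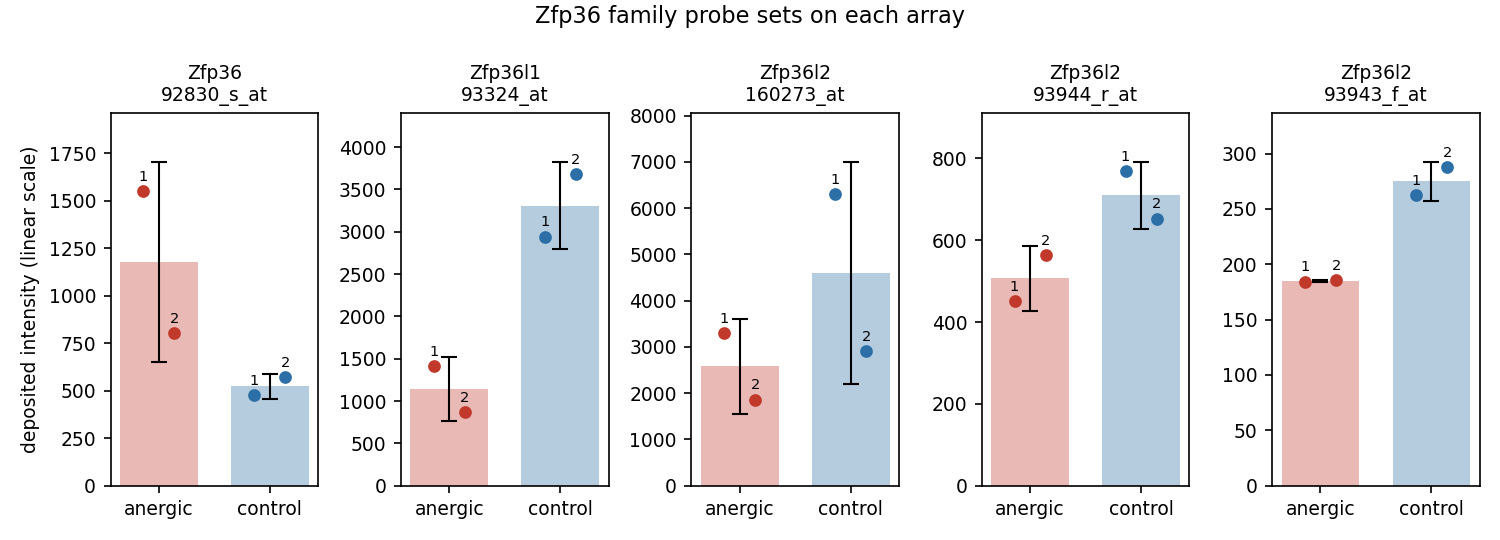
Deposited intensity (linear scale, separate axis for each panel) of the 5 Zfp36 family probe sets on anergic and control arrays. Points are single arrays numbered 1 and 2, bars are group means and error bars are SD (n = 2 each). Zfp36 is higher on both anergic arrays, Zfp36l1 is lower on both, and 160273_at of Zfp36l2 overlaps between groups.

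All 5 probe sets passed the filter on low values. Of these, 1 had both anergic arrays above both control arrays, which 16.8% of all probe sets tested did. In 3 both anergic arrays were below both control arrays, as in 23.5% of all probe sets. The fit over all probe sets (limma with Benjamini-Hochberg adjustment at 0.05) called 1 of the 5, Zfp36l1, as lower, where it called 0.429% of all probe sets lower, 0.912% higher and 1.34% in either direction. The contrast chose the family, so nothing is read from these counts. The call of Zfp36l1 was close to the threshold over all probe sets (limma adjusted p = 0.0496). It was lost with a pseudocount of 1, either other filter, centred arrays, quantile normalization or no intensity trend. A pseudocount equal to the array median kept it. With 1 probe set a gene, 5583 genes were fitted, of which 0.842% were called lower, Zfp36l1 among them (limma adjusted p = 0.0231). Among their log2 differences, that of Zfp36 was exceeded by 2.72% of genes, 0.824% of genes lay below Zfp36l1, and 5.75% lay below Zfp36l2. Since the contrast chose the family, these places too are a description.

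**Figure D2:**
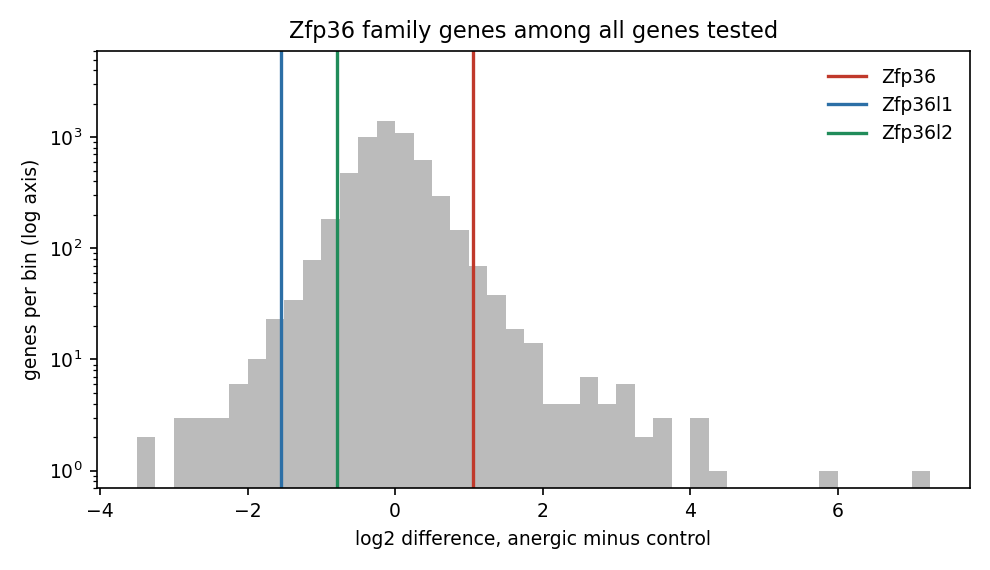
Histogram of the log2 difference (anergic minus control) of all 5583 genes tested, in bins of 0.25, with the number of genes on a log axis. Vertical lines mark Zfp36 at 1.06, Zfp36l1 at -1.54 and Zfp36l2 at -0.78, on either side of the median of all genes at -0.09.

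**Figure D3:**
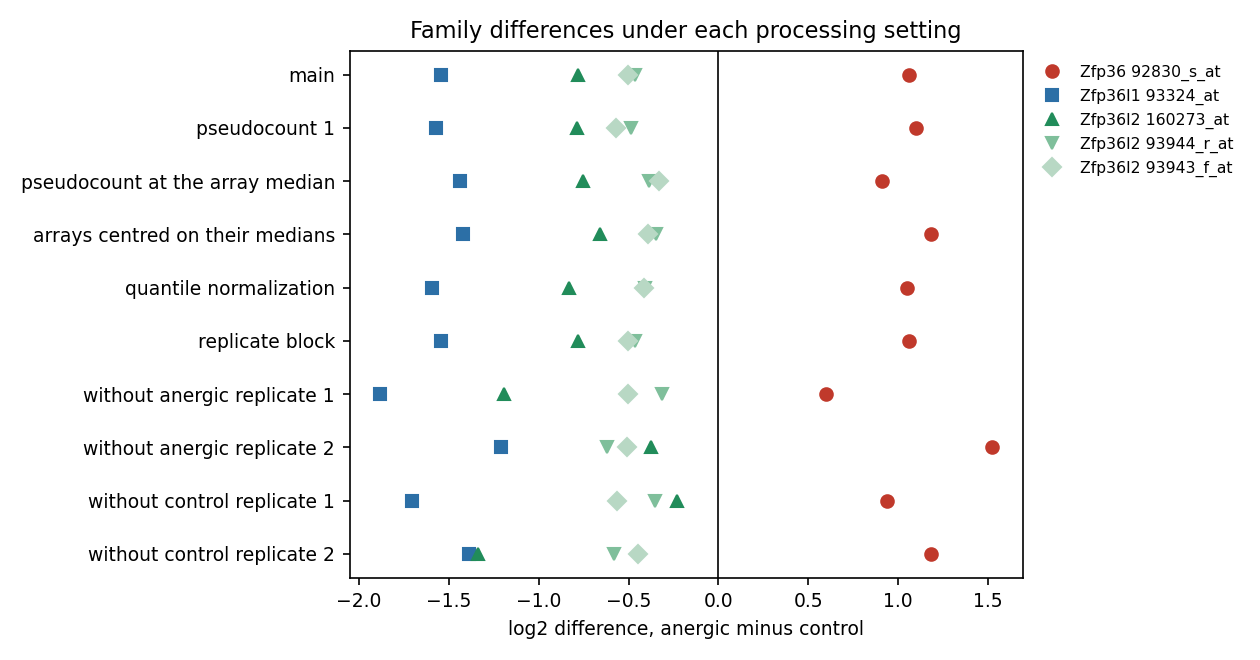
Log2 difference (anergic minus control) of each Zfp36 family probe set under the main processing and each alternative, 1 point per probe set and setting. Zfp36 stays above 0 and the other probe sets below 0 in every setting plotted. Zfp36l2 160273_at spreads most, between -1.34 and -0.23.

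The genes whose values over the 4 arrays were most like each member were found by the Euclidean distance between log2 values centred on the mean of the arrays. With 4 arrays many genes can match closely, so this is a description. Nearest to Zfp36 were Pim3, which encodes a serine/threonine kinase (distance 0.13), Nfkbiz, which encodes a nuclear cofactor of NF-kB (0.26), and Pdia4, which encodes a disulfide isomerase of the endoplasmic reticulum (0.32). Pim3 was at 1020 and 472.9 on the anergic arrays, against 284.6 and 375.4 on the control arrays, so that anergic array 1 stood out there too. Nearest to Zfp36l1 were the WD-repeat gene Wdr6 (0.23), the ATP-gated channel gene P2rx4 (0.29) and the hexokinase gene Hk2 (0.34). Hk2 was at 878.9 and 448.8 on the anergic arrays, against 2028 and 1904 on the control arrays. Nearest to the brightest Zfp36l2 probe set were the poly(A)-binding protein gene Pabpc4 (0.13), the mitochondrial ribosomal gene Mrps2 (0.14) and the metallothionein gene Mt2 (0.19). Pabpc4 was at 1211 and 704 on the anergic arrays, against 2288 and 1176 on the control arrays, with the same overlap of groups as Zfp36l2.

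**Figure D4:**
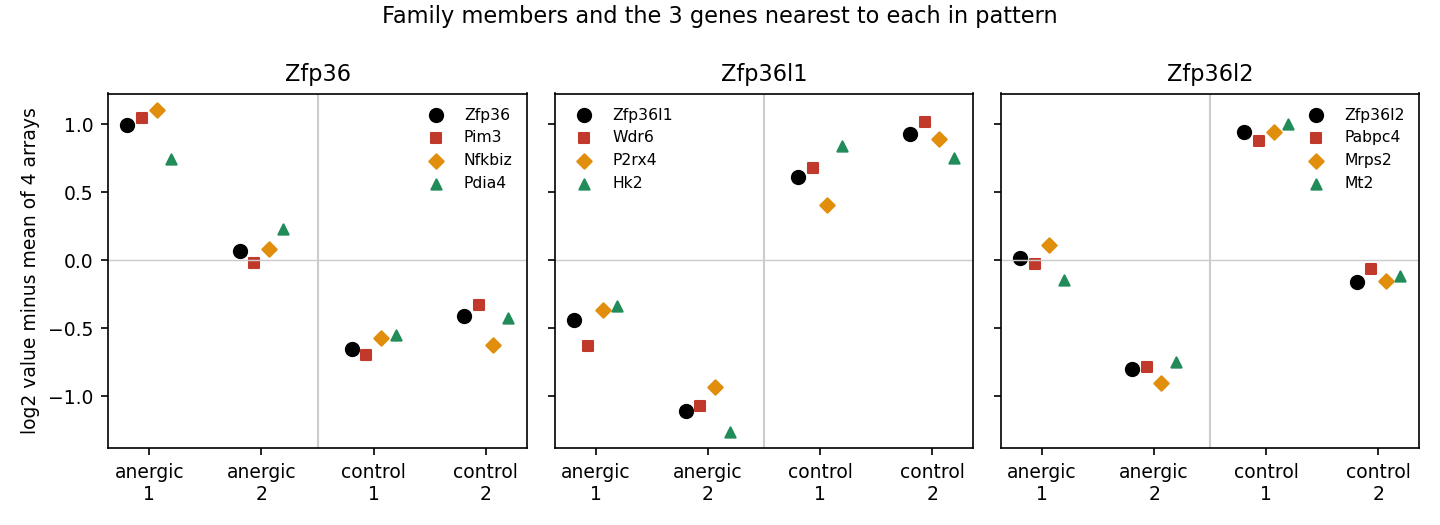
Log2 value minus the mean of the 4 arrays (y axis) on each array (x axis) for each family member and the 3 genes nearest to it. Zfp36 and its nearest genes are highest on anergic array 1, Zfp36l1 and its nearest genes are lowest on anergic array 2, and Zfp36l2 and its nearest genes are highest on control array 1.

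The members lie on different chromosomes, Zfp36 on 7, Zfp36l1 on 12 and Zfp36l2 on 17. The nearest measured gene on each side of each member was not called in limma. Only Rad51b lies next to its member with no protein-coding gene between. On each side of Zfp36 2 protein-coding genes lie between, and 1 lies between Zfp36l1 and Actn1. From Zfp36l2 there are 3 before Cox7a2l and 5 before Lrpprc. Beside Zfp36, the elongation factor gene Supt5 was at 2420 and 1870 on the anergic arrays, against 2491 and 1793 on the control arrays (log2 difference 0.01 ± 0.26, SE, adjusted p = 0.993), and Samd4b was at 0.25 ± 0.29 (adjusted p = 0.834). Beside Zfp36l1, the DNA repair gene Rad51b was at -0.21 ± 0.38 (adjusted p = 0.906) and the actin-binding gene Actn1 at 0.80 ± 0.35 (adjusted p = 0.381). Beside Zfp36l2, Cox7a2l was at -0.24 ± 0.23 (adjusted p = 0.787) and Lrpprc at -0.38 ± 0.35 (adjusted p = 0.773).

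Among messages that carry AU-rich elements or have been linked to the family, a few genes passed the test. Of 45 listed genes 42 were on the array and 28 passed the filter. Ccl3, Ccl4 and Ier3 rose, Myc fell and 24 did not pass (limma, Benjamini-Hochberg over all genes), so 14.3% of the list was called, against 2.17% of all genes tested, of which 1.33% were called higher and 0.842% lower. The list's median log2 difference was 0.46, against -0.09 for all genes, and 18 members were above 0 and 10 below. The median was 0.23 without anergic array 2. In 14 members both anergic arrays were above both control arrays, as in 17.3% of all genes, and in 6 they were below, as in 24% of all genes. With no filter on low values the list's median was 0.03. The 24 genes that did not pass lay between -1.39 (Il6) and 1.17 (Il2ra), and the 14 below the filter did not exceed an intensity of 129.6. The list was written with results of these data known, so neither its share of calls nor its direction is independent evidence.

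Ccl3, which encodes an inflammatory chemokine whose message tristetraprolin is known to destabilise in macrophages, was at 4511 and 4604 on the anergic arrays, against 717.4 and 573.3 on the control arrays. Its groups were far apart, with a log2 difference of 2.77 ± 0.24 (SE, limma adjusted p = 0.000474). Ccl4, encoding a related chemokine, was at 948.4 and 840.2 on the anergic arrays, against 134.7 and 49 on the control arrays (3.03 ± 0.41, adjusted p = 0.00442). Ier3, an immediate early gene and known target of tristetraprolin, was at 2470 and 1915 on the anergic arrays, against 398.2 and 299.3 on the control arrays (2.56 ± 0.28, adjusted p = 0.00167). Myc, a driver of growth, was at 66.4 and 101.5 on the anergic arrays, against 377.6 and 516.5 on the control arrays (-2.08 ± 0.39, adjusted p = 0.0251). Myc was no longer called when anergic array 1 (-1.85) or control array 2 (-1.86) was left out, or when low values were kept (adjusted p = 0.0758). The stricter filter left it out, and a pseudocount equal to the array median gave a difference of -1.31.

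The cytokine targets best known for this family were singled out after their values had been seen. Tnf, the founding target of tristetraprolin, was at 1367 and 1063 on the anergic arrays, against 1034 and 553.2 on the control arrays. Its groups were just apart, and the log2 difference of 0.65 ± 0.33 (SE) did not pass (limma adjusted p = 0.477). Csf2, encoding GM-CSF, was at 707.9 and 856.5 on the anergic arrays, against 395.5 and 478.3 on the control arrays (0.80 ± 0.29, adjusted p = 0.259). Ifng was at 3869 and 4864 on the anergic arrays, against 2132 and 2649 on the control arrays (0.86 ± 0.24, adjusted p = 0.132). For Csf2 and Ifng too, both anergic arrays were above both control arrays. Il6, also in the list, went the other way, at 38.2 and 59.7 on the anergic arrays, against 142.7 and 209.5 on the control arrays. Both its anergic arrays were below both control arrays (-1.39 ± 0.49, adjusted p = 0.256). Il3 was at 66.3 and 113.7 on the anergic arrays, against 89.3 and 186.4 on the control arrays, and the groups overlapped (-0.45 ± 0.51, adjusted p = 0.834). Il2, also a known target, stayed below the filter, at 2.8 and 6 on the anergic arrays and 5.7 and 5.5 on the control arrays. A fit without 1 array leaves a lone array in a group, whose spread it cannot measure, so differences alone are given here. Without control array 2, which was the higher of the control arrays for Ifng and the lower for Tnf, the difference of Ifng was 1.02. That of Tnf was 0.22 without the same array. Notch1, a known target of Zfp36l1 and Zfp36l2 in mouse thymocytes, was at 331.9 and 597.1 on the anergic arrays, against 489.4 and 775.3 on the control arrays, and its groups overlapped (-0.44 ± 0.36, SE, adjusted p = 0.721).

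Regulators of the family proteins lay on both sides of 0. Of 31 listed kinases, phosphatases and 14-3-3 genes 20 were tested, and limma called 0, with an unadjusted p under 0.05 in 2. With 2.17% of all genes called, nothing is read from a count of 0 in a list of this size. The list's median was 0.02, against -0.09 for all genes. Of its members 12 were above 0 and 8 below, where 41.9% of all genes were above 0. The sign of the median turned without anergic array 1 (-0.02, against 0.008 for all genes) and without control array 2 (-0.11, against -0.03). Dusp1, encoding the phosphatase that inactivates p38 and itself an AU-rich message, was at 1905 and 1930 on the anergic arrays, against 780.9 and 1273 on the control arrays (0.92 ± 0.28, SE, adjusted p = 0.177). Mapk14, which encodes p38 alpha, was at 2833 and 2461 on the anergic arrays, against 3578 on each control array (-0.43 ± 0.23, adjusted p = 0.492). Mapkapk2, encoding the kinase that p38 activates and that phosphorylates tristetraprolin, was at 5026 and 4824 on the anergic arrays, against 4053 and 2996 on the control arrays (0.50 ± 0.24, adjusted p = 0.444). The 2 smallest p-values of the list belonged to Dusp1 and to the kinase gene Akt2 (0.65 ± 0.25, adjusted p = 0.306). Against a single control array the difference of Dusp1 was 1.26 without control array 2 and 0.58 without control array 1. Mapkapk2 was at 0.28 without control array 2. The 6 tested 14-3-3 genes with Ywha symbols, whose proteins bind phosphorylated tristetraprolin, lay between -0.37 and 0.54, with 3 above 0 and 3 below.

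Other RNA-binding regulators lay mostly below 0. Of 29 listed genes 19 were tested and limma called 0, with an unadjusted p under 0.05 in 2 (2.17% of all genes were called). The median was -0.32, with 5 members above 0 and 14 below, where 41.9% of all genes were above 0. In 8 of the 19 both anergic arrays were below both control arrays, as in 24% of all genes, and in 0 they were above, as in 17.3% of all genes. The median was -0.19 without anergic array 2 or with the mean of a gene's probe sets, and -0.20 without anergic array 1 or with centred arrays. Nudt21, encoding a cleavage factor that selects poly(A) sites, was at 605.9 and 561.8 on the anergic arrays, against 1136 and 1032 on the control arrays (-0.86 ± 0.26, SE, adjusted p = 0.168). Tial1, which encodes an AU-rich element-binding translational repressor, was at 1126 and 1198 on the anergic arrays, against 1729 and 1794 on the control arrays (-0.59 ± 0.24, adjusted p = 0.328). The nucleolin gene Ncl was at -0.50 ± 0.23 (adjusted p = 0.401), and the stress granule gene G3bp1 at -0.43 ± 0.23 (adjusted p = 0.503), with 0.60 at its other probe set. Elavl1, which encodes HuR, the stabilising counterpart of the family, was at 0.05 ± 0.25 (adjusted p = 0.967), and was named after its value had been seen.

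The decay machinery itself lay mostly a little below 0, as did most genes tested. The 52 listed genes include the deadenylase, decapping and exosome complexes, poly(A)-binding proteins, adaptors such as Tob1 and exonucleases such as Xrn1. Of them 28 were tested and limma called 0, with an unadjusted p under 0.05 in 4 (2.17% of all genes were called). The list's median was -0.16, against -0.09 for all genes. Of its members 8 were above 0 and 20 below, where 41.9% of all genes were above 0. With centred arrays the list's median was -0.04, against 0.03 for all genes. It was -0.27 with the mean of a gene's probe sets and -0.24 without anergic array 2. In 4 members both anergic arrays were above both control arrays, as in 17.3% of all genes, and in 11 they were below, as in 24% of all genes. Tob1, an antiproliferative adaptor that binds the CCR4-NOT deadenylase, was at 2405 and 2775 on the anergic arrays, against 1402 and 1490 on the control arrays (0.83 ± 0.24, SE, adjusted p = 0.135). Pan2, encoding the catalytic subunit of another deadenylase, was at 400.5 and 359.1 on the anergic arrays, against 721.4 and 709.3 on the control arrays (-0.87 ± 0.28, adjusted p = 0.199). Lsm7, from the ring that joins deadenylation to decapping, was at -1.04 ± 0.32 (adjusted p = 0.177), and Xrn1, the exonuclease that degrades decapped RNA, at 1.18 ± 0.49 (adjusted p = 0.348). Against control array 1 alone Lsm7 was at -1.25. Xrn1 was at 0.73 without control array 1, where it was dimmest, and at 0.59 with a pseudocount equal to the array median. A grouping by complex was not planned and was not repeated under the alternatives. In it, the 6 tested CCR4-NOT subunit genes lay between -0.31 and 0.27, with 2 above 0 and 4 below. The 5 tested exosome subunit genes were all below 0, between -0.96 and -0.15, and in 4 of them both anergic arrays were below both control arrays. The shares of all genes given above for the decay machinery apply here too. Probe sets of a gene disagreed for the helicase gene Ddx6 (0.51, 1.06 and -0.04) and the deadenylase gene Cnot7 (-0.16 and -1.27), both named after their values had been seen. The subunit gene of CCR4-NOT that binds the family directly, Cnot1, was not analysed here.

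**Figure D5:**
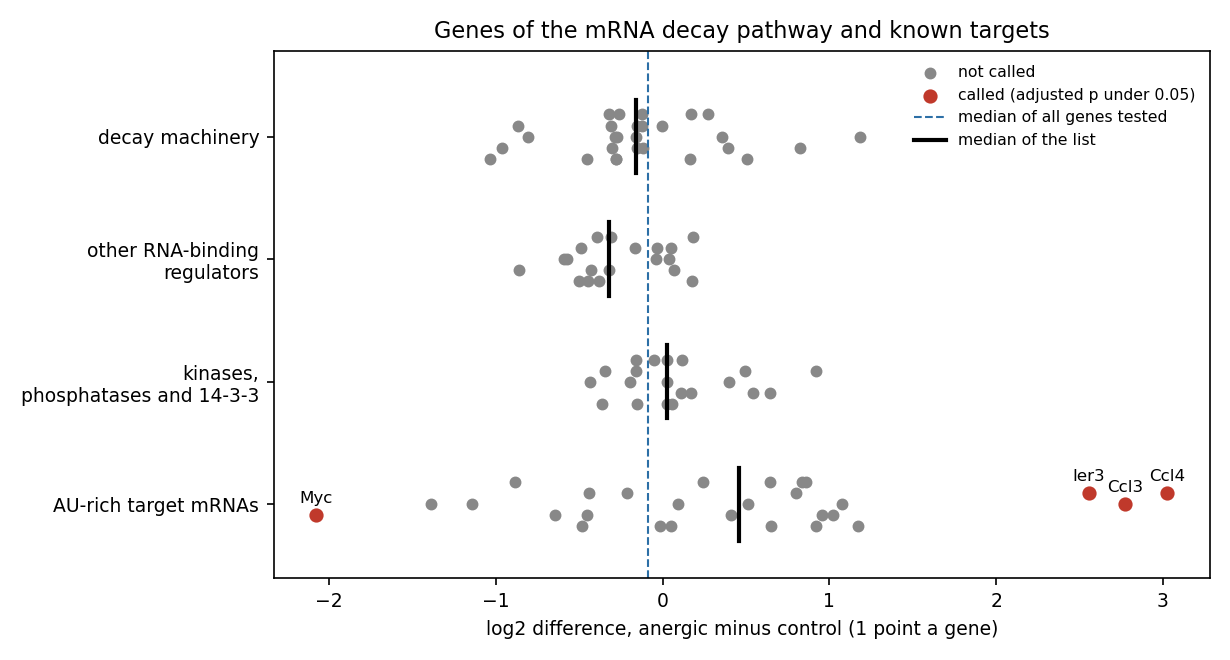
Log2 difference (anergic minus control) of the tested genes of each list, 1 point a gene, with list medians as black bars and the median of all genes tested as a dashed line. Red points are the genes called in limma (adjusted p under 0.05): Ccl3, Ccl4 and Ier3 to the right and Myc to the left, all in the list of AU-rich target mRNAs.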

How the data were processed

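The authors deposited linear intensities for 12488 probe sets on 4 arrays. Per the labels' protocols, RNA was extracted with Trizol and about 8 µg was made into biotin-labelled cRNA. Neither the labels nor the table name the scanner software, background correction or probe summary. The deposited scale was kept, since trimmed means (2% from each end) were within 1.1-fold of each other. Values were transformed as log2(intensity + 29.15), where 29.15 is the median over arrays of the 20th percentile. The 66 control probe sets were left out. Probe sets with a mean log2 value above the 40th percentile were kept (7453), and 1 probe set a gene, the brightest, gave 5583 genes. The two-sided test was limma's moderated test (version 3.58.1, R 4.3.3) with a mean-variance trend in eBayes, and p-values were adjusted by Benjamini-Hochberg at 0.05. An SE comes from this fit, an SD from the 2 arrays of a group. Precision is limited by the number of arrays. No depth is defined for an array.

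Symbols came from GEO's platform annotation, updated by gene ID with a RefSeq table of GRCm38.p6: of 12422 probe sets, 10833 had 1 symbol, 396 had several and 1193 had none listed. Promoter sequences are RefSeq's. The members and lists were chosen with earlier results of these data known. The text names every family probe set, in each list every gene called and otherwise the 4 of smallest p, the 3 genes nearest to each member, and the nearest measured gene on each side of it. The alternatives were other pseudocounts, filters, scalings and variance priors, the mean of a gene's probe sets, the replicate number as a block, and each array left out in turn.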

Additional observations from a re-analysis of the deposited data

How the results depend on the processing

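All 5 family probe sets kept their direction under every alternative run, as the plot of settings shows. Differences without each array in turn lay between 0.60 and 1.52 for Zfp36, between -1.88 and -1.21 for Zfp36l1, and for Zfp36l2 between -1.34 and -0.23 at 160273_at, between -0.62 and -0.32 at 93944_r_at and between -0.56 and -0.45 at 93943_f_at. At 93943_f_at, whose arrays lie close together, the difference was -0.57 with a pseudocount of 1, -0.33 with the pseudocount at the array median, -0.39 with centred arrays and -0.42 with quantile normalization. The number of family probe sets called, an alternative added after seeing the data, was 1 in the fit reported. It was 0 with a pseudocount of 1, no filter, the stricter filter, centred arrays, quantile normalization or no intensity trend. It stayed at 1 with the pseudocount at the array median.

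Over all probe sets 100 were called (68 higher, 32 lower), against 59 with no filter, 62 with centred arrays (50 higher, 12 lower) and 38 with no intensity trend. For genes 121 were called (74 higher, 47 lower), against 62 with centred arrays (48 higher, 14 lower) and 44 with no intensity trend. Leaving out each array gave between 44 and 354 probe sets and between 50 and 280 genes. It gave between 3 and 7 called AU-rich targets, 0 to 2 genes of the decay machinery, 0 to 2 of the kinases, phosphatases and 14-3-3 genes, and 0 other RNA-binding regulators. Arrays of the same number deviated together from their group means (Pearson's r = 0.54 over probe sets), but the labels do not say what a number marks. With the replicate number as a block, 761 probe sets and 707 genes were called, with 3 family probe sets, 16 AU-rich targets, 5 genes of the decay machinery, 1 other RNA-binding regulator and 2 kinase, phosphatase or 14-3-3 genes. With the mean of its probe sets G3bp1 turned to 0.083. Supt5, at 0.01, turned to -0.039 with quantile normalization, to -0.17 without anergic array 1 and to -0.22 without control array 2, and lay between -0.22 and 0.24 over all alternatives. The causes were not tested.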
